A study of Mus musculus with 12 samples.

Results

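Kit, Dmrt1, Dmrtb1, Stra8, Rhox13 and Fthl17a are genes that are associated with spermatogonia as these leave the undifferentiated state and approach meiosis, and all 6 were found by gene symbol in the annotation of the arrays, among 15964 named genes in all. They were read by 8 probe sets: 3 for Dmrtb1 and 1 for each other gene. The study isolated 4 kinds of mouse germ cell: spermatogonia of type A and of type B, spermatocytes at pachytene, and round spermatids. Total RNA of each was read on the Affymetrix arrays U74Av2, U74Bv2 and U74Cv2. With 1 array per cell type and design, 12 in all, no difference has a replicate error or a test, and precision is limited by that number. Genotype, strain, age, treatment and isolation method are not given in the labels for any of the 4.

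In the mouse testis, type A spermatogonia divide by mitosis, type B spermatogonia are the last mitotic generation, pachytene spermatocytes are in meiotic prophase and round spermatids are haploid. Retinoic acid moves undifferentiated spermatogonia towards differentiation, and these cells then depend on the receptor KIT, whose ligand is made by Sertoli cells. In the same species STRA8 is needed to begin meiosis, DMRT1 holds spermatogonia in mitosis and represses Stra8, and DMRTB1, also called DMRT6, takes part in the orderly change from mitosis to meiosis. Rhox13 is an X-linked homeobox gene of germ cells, and Fthl17a an X-linked gene of the ferritin heavy chain family. Genes on the X chromosome are silenced as a whole during pachytene.

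The values are MAS5 signals on a linear scale, and signals under a floor of 50.03 units on U74Av2 and U74Cv2 or 50.01 on U74Bv2 were set to it before ratios were taken. Where 1 of the 2 signals lay under the floor, the fold is a lower bound of the size, marked with "at least". The cell type labels were set against marker genes. The 6 measured spermatogonial markers, Kit and Dmrt1 among them, summed to 2704 in type A, 1875 in type B, 301 in pachytene and 910 in round spermatids. That list is for both spermatogonial types, so it does not check type A against type B. Kit and Dmrt1 gave 385 and 1195 of the sum in type A and 202 and 659 in type B. The sums thus rest in large part on genes described here and are no independent check. Among the 4 markers without them 2 were at least 2-fold lower in pachytene than in type B and 0 higher. The summed signal of 7 measured pachytene markers was 814 in type A, 616 in type B, 35581 in pachytene and 34863 in round spermatids. For 8 round spermatid markers it was 305, 345, 2695 and 36042 in the same order. The pachytene list had nearly equal sums in pachytene and round spermatids, so it does not check the former against the latter. At least 2-fold higher were 6 of the 7 in pachytene over type B, and 6 of the 8 in round spermatids over pachytene. The exceptions were Sycp3, at 60.4 in pachytene, and Prm2 and Spaca1, at 67.3 and 20.5 in round spermatids. Genes of other testis cells were also present: 13 of 14 Sertoli cell genes exceeded the floor in both spermatogonial types, 11 in pachytene and 6 in round spermatids, and 7 fibroblast genes summed to 4847 in type A, 11454 in type B, 196 in pachytene and 501 in round spermatids. In such preparations fewer cells of a type and less RNA per cell cannot be told apart.

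The 6 genes fell into 3 kinds of profile. Kit, Dmrt1, Stra8 and Rhox13 were high in both spermatogonial types, lowest in pachytene spermatocytes and partly higher again in round spermatids. Dmrtb1 was lowest in type B spermatogonia and highest in round spermatids. Fthl17a had its highest signal in round spermatids, with signals close to each other in the other cell types. In 4 of the 6 both spermatogonial types were thus higher than the later cells, whereas Dmrtb1 and Fthl17a had their highest signal in the haploid cells. The order of those 4 does not set differentiating spermatogonia apart from undifferentiated ones. Zbtb16, a gene of the undifferentiated cells, read 670 in type A, 268 in type B, 41.5 in pachytene and 39.0 in round spermatids. Not all such genes had this order. Among 17 measured genes of undifferentiated cells 3 were at least 2-fold higher and 2 lower in type B over type A. The shares of all genes were 3.6% and 3.62%. In pachytene over type B 8 were lower and 1, Id4, higher, beside 21.9% and 16.2% of all genes. Zbtb16 was among the lower at both steps. The root mean square difference between profiles, each log2 profile centred on its mean over the 4 arrays, was between 0.32 and 0.64 for the 6 pairs among Kit, Dmrt1, Stra8 and Rhox13, 1.30 for Dmrtb1 and Fthl17a, and between 1.78 and 3.41 for the other pairs. Signals under the floor were set to it first, those of Kit and Stra8 in pachytene included, so their distances rest partly on the floor. With no floor the log2 ratios of Stra8 were -4.84 in pachytene over type B and 2.37 in round spermatids over pachytene. They were -3.30 and 0.83 with it.

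**Figure D1:**
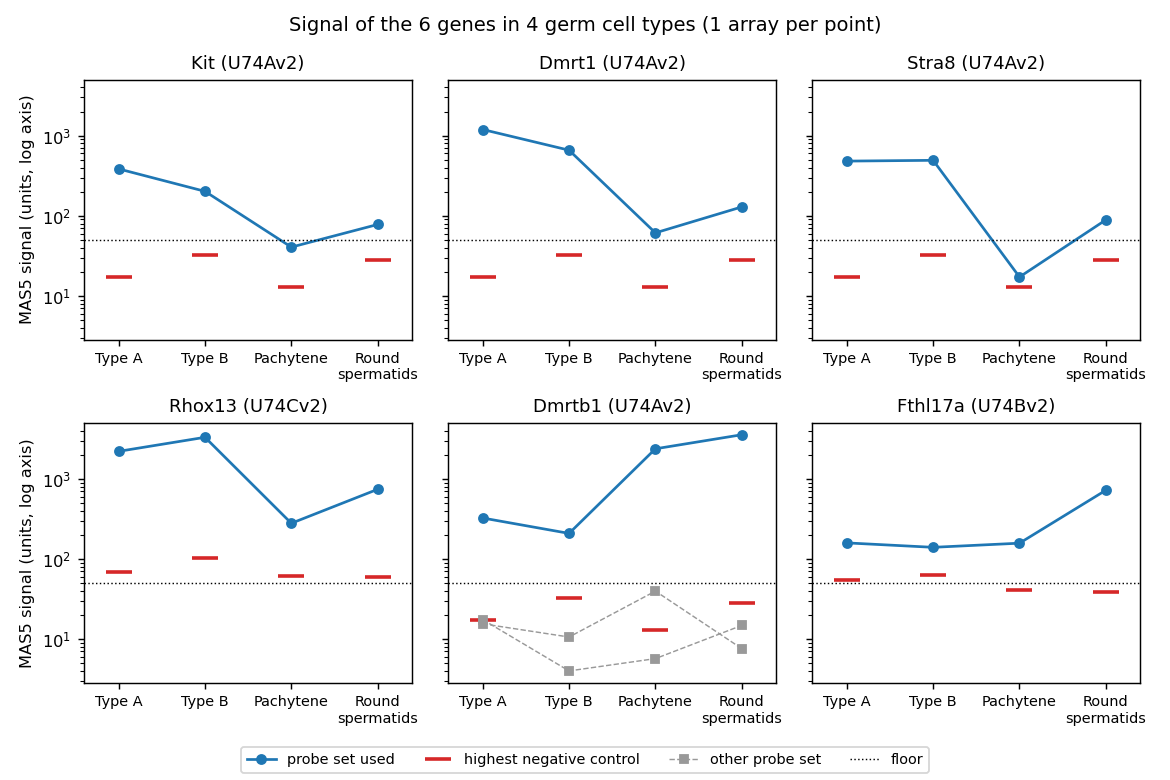
MAS5 signal (units, log axis) of the 6 genes across the cell types, 1 array per point; red bars are the highest negative control on the arrays of the probe set used, and the dotted line is the floor. Kit, Dmrt1, Stra8 and Rhox13 have their lowest point in pachytene, and 2 further Dmrtb1 probe sets on U74Cv2 (grey) stay under the floor.

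The receptor gene Kit had a signal of 385 in type A, 202 in type B, 40.6 in pachytene and 77.9 in round spermatids. Type A was the highest, and pachytene lay under the floor but over the highest negative control of its array, which read 12.9. Kit was 1.91-fold lower in type B than in type A (log2 -0.93), at least 4.04-fold lower in pachytene than in type B (log2 -2.01 against the floor) and at least 1.56-fold higher in round spermatids than in pachytene (log2 0.64). Round spermatids remained 2.59-fold under type B. Mouse spermatids are known to make a shorter Kit transcript that encodes the end of the kinase without the outer part of the receptor, and which transcript the probe set reads was not tested.

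Technical spread was taken from control probe sets present on all 3 designs. The log2 ratio of the same control had an SD over designs of 0.26 from type A to type B (30 controls), 0.23 from type B to pachytene (31) and 0.44 at the last step, from pachytene to round spermatids (29). This spread holds no variation between cell preparations. A shift shared by the 3 designs does not enter it either. The bacterial spike-in controls had a mean log2 ratio of 0.81 at the first step, -0.71 at the second and 0.01 at the third. By the SD over designs the ratio of Kit was 3.57 SD from 0 at the first step, 8.67 at the second and 1.46 at the third. The last 2 of these rest on a pachytene signal set to the floor, whereas the controls used lay over it.

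Dmrt1, the DM domain regulator, had a signal of 1195 in type A, 659 in type B, 61.2 in pachytene and 129 in round spermatids. All 4 signals exceeded the floor and the highest negative control, so its ratios are measured and are no bounds. It was 1.81-fold lower in type B than in type A (log2 -0.86), 10.8-fold lower in pachytene than in type B (log2 -3.43) and 2.11-fold higher in round spermatids than in pachytene (log2 1.08). At the second step 60 genes had a still lower ratio, of 13003 that exceeded the floor in 1 cell type or more. Genes under the floor in pachytene enter with a bound, so this count is a minimum. Sertoli cells also make DMRT1 in mice, and the 14 Sertoli cell genes summed to 9434 in type A, 7421 in type B, 3824 in pachytene and 1406 in round spermatids; their part in the Dmrt1 signal was not tested. That list holds Kitl and Rhox5.

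Stra8 had a signal of 482 in type A and 493 in type B, against 17.2 in pachytene and 88.9 in round spermatids. The ratio of type B over type A was 0.03 on the log2 scale, within 0.12 SD of the controls, so these neighbours in the order were not told apart. It turned to -0.14 under a common median and to -0.79 when the bacterial spike-in controls set the scale of each array. Pachytene lay at least 9.85-fold under type B (log2 -3.30), with a signal near the highest negative control of 12.9. Round spermatids were at least 1.78-fold over pachytene (log2 0.83) and 5.54-fold under type B. The stage between type B and pachytene, at which Stra8 is known to act, was not among the sampled cells.

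Rhox13 had a signal of 2208 in type A, 3308 in type B, 279 in pachytene and 742 in round spermatids. Type B was the highest and pachytene the lowest. Its log2 ratio of type B over type A was 0.58, and -0.15 under spike-in scaling. Pachytene was 11.8-fold under type B (log2 -3.57), with 49 of 13003 genes further down. That count is a minimum too, as genes under the floor in pachytene enter with a bound. Round spermatids were 2.66-fold over pachytene (log2 1.41) and 4.46-fold under type B.

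The promoters of 3 of these 4 genes are shown because all 4 had their lowest signal in pachytene. Each runs from 250 bases before to 50 bases after a start site. These are RefSeq sequences of build GRCm38.p6, which held a promoter for 5 of the 6 genes. Capitals mark AGGTCA, the core site of retinoic acid receptors, and ACANTGT, the core of the DMRT1 motif, each searched on both strands, and the Kit window is 1 of 2 that overlap almost wholly:
Stra8, chr6:34920698-34920997, plus strand: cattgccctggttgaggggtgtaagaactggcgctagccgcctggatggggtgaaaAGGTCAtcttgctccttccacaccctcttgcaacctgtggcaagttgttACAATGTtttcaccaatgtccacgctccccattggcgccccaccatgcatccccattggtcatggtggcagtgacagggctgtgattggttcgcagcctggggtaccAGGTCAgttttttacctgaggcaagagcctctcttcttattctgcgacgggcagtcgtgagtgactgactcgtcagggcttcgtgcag
Rhox13, chrX:38120590-38120889, plus strand: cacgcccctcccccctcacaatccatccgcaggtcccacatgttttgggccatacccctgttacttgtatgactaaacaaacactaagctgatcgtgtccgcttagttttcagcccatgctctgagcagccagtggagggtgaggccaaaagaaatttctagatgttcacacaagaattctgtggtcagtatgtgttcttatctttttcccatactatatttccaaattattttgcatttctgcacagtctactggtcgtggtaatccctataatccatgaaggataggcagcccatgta
Kit, chr5:75574737-75575036, plus strand: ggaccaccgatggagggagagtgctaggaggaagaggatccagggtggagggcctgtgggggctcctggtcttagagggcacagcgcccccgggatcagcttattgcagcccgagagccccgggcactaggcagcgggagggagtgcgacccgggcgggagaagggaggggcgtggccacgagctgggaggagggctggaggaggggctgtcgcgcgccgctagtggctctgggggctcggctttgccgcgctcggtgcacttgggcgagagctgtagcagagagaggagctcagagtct
The Stra8 window held AGGTCA at 194 and 38 bases before the start site and ACAATGT, a match to ACANTGT, at 145 bases before it; the matches do not overlap. Of 32851 promoter windows of this length 16.3% held AGGTCA at least once, 1.81% held it at 2 or more places, and 7.54% held ACANTGT. The windows of Kit, Rhox13, Dmrtb1 and Fthl17a held neither. CANNTG, the E-box, occurred in each of the 4 but not in that of Stra8, and in 72.3% of all windows. These are matches of letters, and no binding was measured.

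Dmrtb1 and Dmrt1 had opposite signs in pachytene over type B and the same sign at the other steps. The Dmrtb1 probe set on U74Av2 read 325 in type A, 209 in type B, 2376 in pachytene and 3559 in round spermatids. It was 1.56-fold lower in type B than in type A (log2 -0.64), 11.4-fold higher in pachytene than in type B (log2 3.51) and higher in round spermatids than in pachytene by a log2 of 0.58, or 1.33 SD of the controls. Round spermatids were 17.1-fold over type B. The other 2 probe sets of Dmrtb1, both on U74Cv2, read at most 39.7 and stayed under the floor in all 4 cell types, so the profile rests on 1 probe set.

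Fthl17a had a signal of 159 in type A, 140 in type B, 157 in pachytene and 722 in round spermatids. The first 3 lay within 1.14-fold of each other, with ratios of 0.70 and 0.74 SD of the controls, and were not told apart. Pachytene over type B moved to a log2 of 0.77 under a common median and 0.75 under spike-in scaling, from 0.17 here. Round spermatids were 4.58-fold over pachytene (log2 2.20, or 5.02 SD) and 5.16-fold over type B.

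**Figure D2:**
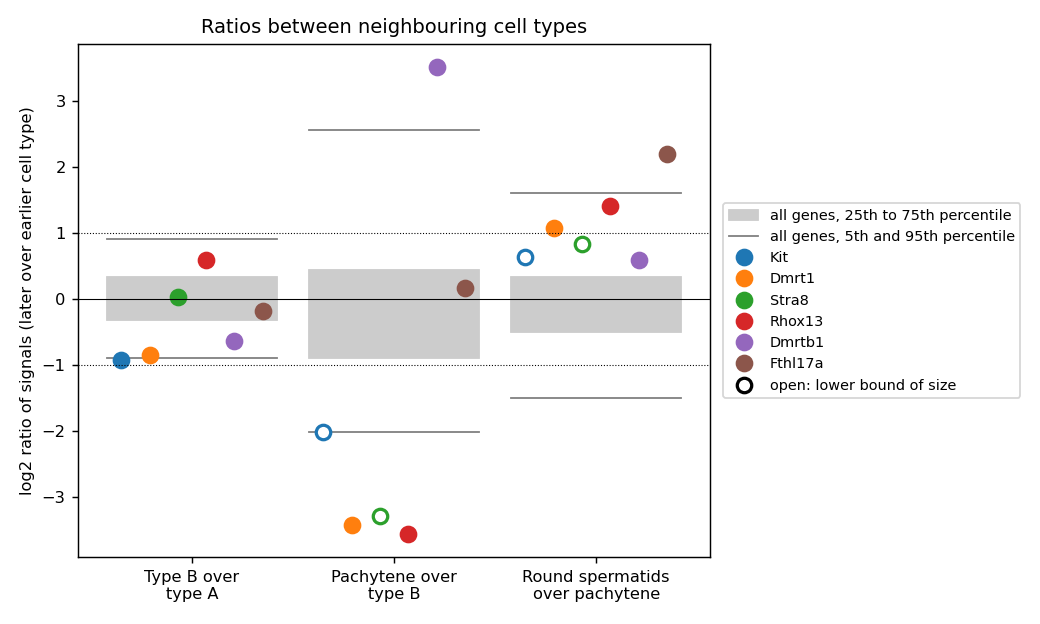
Log2 ratio of signals, later over earlier cell type, for the 6 genes at the 3 steps; open circles are lower bounds of the size, grey boxes span the 25th to 75th percentile of 13003 genes and grey lines mark the 5th and 95th. At the second step Dmrt1, Stra8 and Rhox13 lie near -3.4 and Dmrtb1 at 3.51. At the third step all 6 lie above 0, the median of all genes. Kit and Stra8 are bounds there, and both come to 0 with a floor of 0.8 of the trimmed mean.

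In type B over type A spermatogonia none of the 6 genes was at least 2-fold higher or lower, beside 3.6% of the 13003 genes higher and 3.62% lower. Kit, Dmrt1, Dmrtb1 and Fthl17a had negative ratios, which reached a log2 of -1.75, -1.68, -1.46 and -1.07 under spike-in scaling. The same scaling turned Stra8 and Rhox13 negative, as given above. Under it the median of all genes moved by -0.69 and 30.5% of genes were at least 2-fold lower. Signals of the spike-in controls were 1.76-fold higher for type B than for type A. Sertoli cell genes summed lower and fibroblast genes higher in type B than in type A, as given above, and their part in these ratios was not tested.

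In pachytene spermatocytes over type B spermatogonia 4 of the 6 genes, Kit, Dmrt1, Stra8 and Rhox13, were at least 4-fold lower, beside 5.14% of all genes, and Dmrtb1 was at least 4-fold higher, beside 7.46%. Kit passed 4-fold narrowly, and with log2 ratios of -1.71 under a common median, -1.92 under quantile normalization, -1.49 under spike-in scaling and -1.01 with a floor of 0.8 of the trimmed mean it fell short of it, which leaves 3 of the 6. At 2-fold the members were the same 5, beside 21.9% of all genes lower and 16.2% higher. The direction of these 5 held under every alternative scaling, whereas the split of all genes did not: 2105 were higher and 2854 lower here, 3078 and 1505 under a common median, and 3399 and 1181 under spike-in scaling. Fibroblast and Sertoli cell genes also summed lower in pachytene than in type B, and their part was not tested. As defining genes of 2 other cell types that carry KIT, 5 of 7 measured Leydig cell genes exceeded the floor in type B and 3 in pachytene, and 2 of 8 mast cell genes in type B and 3 in pachytene.

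In round spermatids over pachytene spermatocytes Dmrt1, Rhox13 and Fthl17a were at least 2-fold higher, beside 9.07% of all genes, and none was at least 2-fold lower, beside 11.8%. Fthl17a alone was at least 4-fold higher, beside 3.84%, and none was at least 4-fold lower, beside 1.96%. In round spermatids over type B spermatogonia Kit, Dmrt1, Stra8 and Rhox13 were at least 2-fold lower, beside 25.6% of all genes, and all of these but Kit at least 4-fold lower, beside 6.83%. Dmrtb1 and Fthl17a were at least 4-fold higher, beside 9.07%, and 16.4% of all genes were at least 2-fold higher. Of 668 genes that were at least 4-fold lower in pachytene than in type B, 91 or 13.6% were at least 2-fold higher in round spermatids than in pachytene; Dmrt1 and Rhox13 were among them. The 3 genes called 2-fold higher depended on the scaling: Dmrt1 had a log2 of 0.81 under spike-in scaling, which leaves 2, and Stra8 reached 1.06 under a common median and 1.05 under quantile normalization, which makes 4. With a floor of 0.8 of the trimmed mean in place of 0.4 Dmrt1 came to a log2 of 0.37, and both signals of Kit and of Stra8 lay under that floor. The 6 measured spermatogonial markers, a list that holds Kit and Dmrt1, summed to 910 in round spermatids and to 301 in pachytene. Sall4 made up 588 of the 910, by a probe set on U74Cv2. Its probe sets on U74Bv2 and U74Av2 read 41.6 and 5.10 in round spermatids, under the floor. The fibroblast gene Dcn read 291 in round spermatids and 55.7 in pachytene. Whether RNA of such cells enters these ratios was not tested.

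The related genes on the arrays did not share one profile. Of the Dmrt family 6 of 9 listed genes had a named probe set and 5 exceeded the floor. Dmrt3 read 281 in type A, 305 in type B, 142 in pachytene and 114 in round spermatids, and was 2.14-fold lower in pachytene than in type B. Dmrtc1a read between 180 and 295 in the 4 cell types with no 2-fold step. Dmrta2 exceeded the floor only in round spermatids, with 84.6, and Dmrt2 in none.

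Of the Rhox family 4 of 15 listed genes had a named probe set. Rhox5, a homeobox gene of Sertoli cells, read 77.3 in type A, 64.9 in type B, 112 in pachytene and 28.8 in round spermatids, Rhox9 read 62.4 in pachytene and 64.6 in round spermatids and was under the floor in the spermatogonia, and Rhox6 read at most 6.80. On the arrays of U74Cv2 up to 7 of 19 negative controls exceeded the floor, and Rhox9 lay close to the highest of them, 61.2 in pachytene and 58.99 in round spermatids. Rhox5 was thus 1.73-fold higher in pachytene than in type B, where Rhox13 was lower, and the low signals of the other 2 do not allow the comparison. In the ferritin family Fth1, the general heavy chain, read 3065 in type A, 3076 in type B, 1483 in pachytene and 279 in round spermatids. Ftmt, the mitochondrial ferritin, read 10.7, 12.3, 136 and 1931 in the same order and was 14.2-fold higher in round spermatids than in pachytene. Fth1 was 5.32-fold lower at that step by the probe set of highest mean signal, and of its 4 other probe sets 3 were lower and 1 higher, by a log2 of 0.20.

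**Figure D3:**
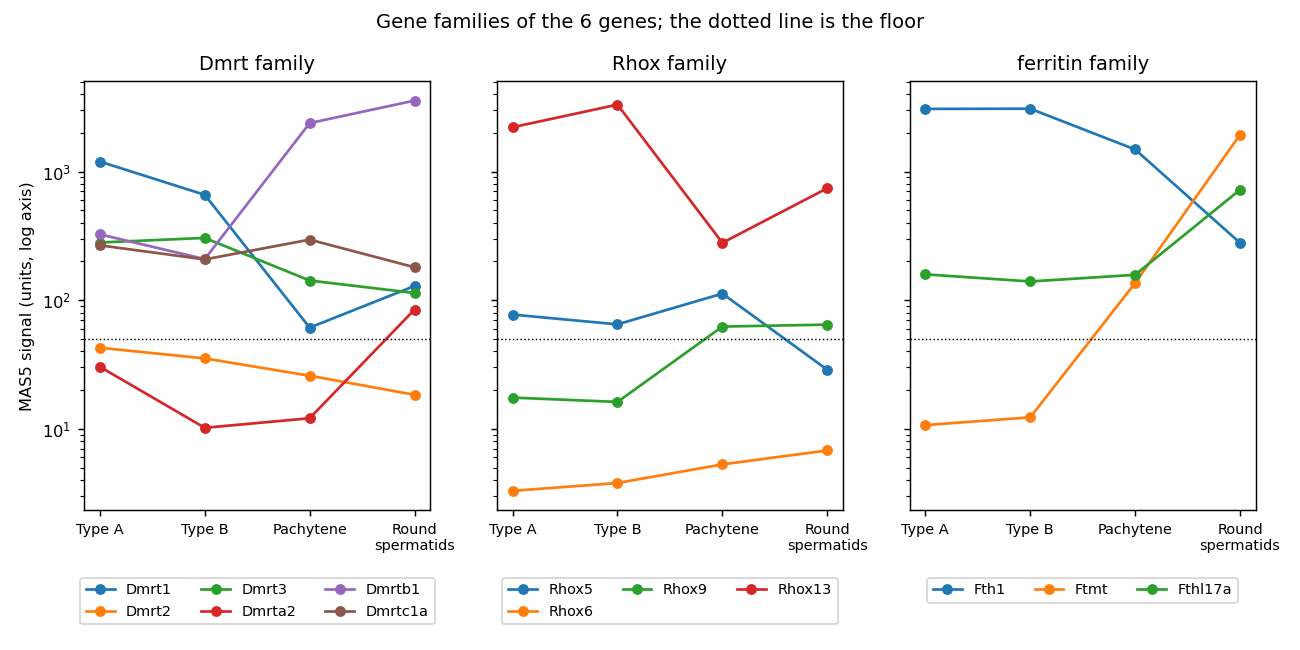
MAS5 signal (units, log axis) of every named Dmrt, Rhox and ferritin family gene in the 4 cell types, 1 array per point, with the floor as a dotted line. From type B to pachytene the line of Dmrt1 drops and that of Dmrtb1 climbs, and from pachytene to round spermatids that of Fth1 drops and that of Ftmt climbs; heights of different genes are not comparable.

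Both X-linked members were set against the other X-linked genes, a class chosen after the values were seen. Of 394 X-linked genes 196 or 49.7% were at least 2-fold lower in pachytene than in type B, beside 21.1% of 12555 autosomal genes, and 4 were higher, or 1.02%, beside 16.7%. Rhox13 was among the 72 X-linked genes at least 4-fold lower and Fthl17a, at 1.13-fold higher, was in neither group. In round spermatids over pachytene 62 X-linked genes or 15.7% were at least 2-fold higher, Rhox13 and Fthl17a among them, beside 8.86% of autosomal genes. The autosomal members Kit, Dmrt1 and Stra8 were low in pachytene as well. What part silencing of the X had in the ratio of Rhox13 was not tested.

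**Figure D4:**
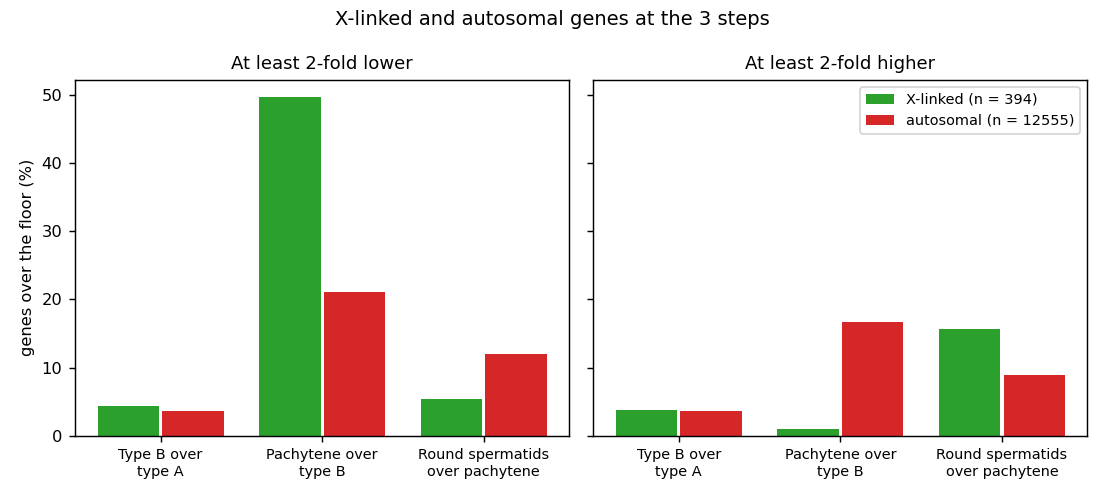
Share of genes over the floor (%) that were at least 2-fold lower (left) or higher (right) at each of the 3 steps, for 394 X-linked and 12555 autosomal genes. The tallest bar is that of X-linked genes lower in pachytene, at 49.7%.

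Genes around the 6 were described by lists, to be read beside all genes, of which 21.9% were at least 2-fold lower and 16.2% higher in pachytene over type B, with a median log2 of -0.21, or 0.20 under spike-in scaling. Of 42 listed genes of KIT signalling 33 exceeded the floor, and in pachytene over type B 15 of them, Kit included, showed a drop of 2-fold or more and 5 an increase, and the median log2 was -0.83. The ligand gene Kitl read 363 in type A, 192 in type B, 38.2 in pachytene and 5.20 in round spermatids, and was at least 3.83-fold lower in pachytene than in type B. Among the transducers Pik3r1, the regulatory subunit of PI3 kinase, was 4.71-fold, the adaptor gene Grb2 2.67-fold, the phosphatase gene Ptpn11 3.96-fold and the kinase gene Akt1 3.94-fold lower in pachytene. The inhibitor gene Spred1 was 6.49-fold and Foxo1, a transcription factor that AKT restrains, at least 3.91-fold lower. The ubiquitin ligase gene Cbl was 8.18-fold, the GTPase gene Nras 4.10-fold and the kinase gene Mtor 3.58-fold higher. Other probe sets of some of these genes read differently: for Cbl the log2 ratios were 3.03, 1.86 and -0.64, and for Foxo1 -1.97, -0.17 and -0.30. Those of Pik3r1 were -2.24 and -0.69, with its further probe sets under the floor, and those of Mtor 1.84 and 0.36. Nras had 2.04 and 1.62. Under spike-in scaling 10 were lower and 7 higher, with a median of -0.06, under a common median 9 and 7, and with the mean over probe sets 7 were lower and 3 higher.

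In the retinoic acid pathway 20 of 28 listed genes exceeded the floor, and 7, Stra8 included, fell short of type B by 2-fold or more in pachytene and 1 exceeded it by as much; the median log2 was -0.51. Under spike-in scaling 4 were lower and 3 higher, with a median of 0.00. The receptor gene Rarb was 7.04-fold lower, after being 2.25-fold higher in type B than in type A. A second Rarb probe set read 67.4 in type B and under the floor elsewhere, with log2 ratios against the floor of -0.43 and 0.43. The number of list genes at least 2-fold higher in type B over type A was 2, but 0 under spike-in scaling. The binding protein gene Crabp1 was at least 4.74-fold lower in pachytene. Rdh10, which makes retinal from retinol, was 3.74-fold lower. Rdh11, another retinol dehydrogenase, was 8.97-fold higher. The receptor gene Rara read 1011 in type A, 984 in type B, 625 in pachytene and 676 in round spermatids, with no 2-fold step, while a second of its probe sets had a log2 ratio of 1.49 in pachytene over type B.

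A further list of spermatogonial differentiation had 14 measured genes, of which 8 were lower and 3 higher by 2-fold or more in pachytene over type B; the median log2 was -1.32. Under spike-in scaling 6 were lower and 4 higher, with a median of -0.72. The X-linked deubiquitinase gene Usp26 was 10.1-fold and the RNA-binding protein gene Dazl 8.15-fold lower, and both were again higher in round spermatids than in pachytene, by 2.17-fold and 2.71-fold. The second probe set of Dazl gave a log2 of -0.48 in pachytene over type B and 0.78 in round spermatids over pachytene. The DNA methyltransferase gene Dnmt3a was at least 6.90-fold lower. Rbm44 was 7.66-fold and the germ cell helicase gene Ddx4 4.89-fold higher, Ddx4 with a log2 of -0.08 by its other probe set. Of the genes of meiotic entry 15 were measured and 5 were higher and 5 lower (median log2 0.27), while 6 were higher and 3 lower under spike-in scaling and under a common median. The nuclease gene Spo11 was 6.05-fold and Syce1, of the synaptonemal complex, 4.76-fold higher, and Ugt8a, of galactolipid synthesis, at least 11.2-fold and Syce2 5.09-fold lower. Of 17 measured genes of undifferentiated spermatogonia 8 were lower and 1 higher; the median log2 was -0.81. Under spike-in scaling 5 were lower and 2 higher, with a median of -0.04.

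**Figure D5:**
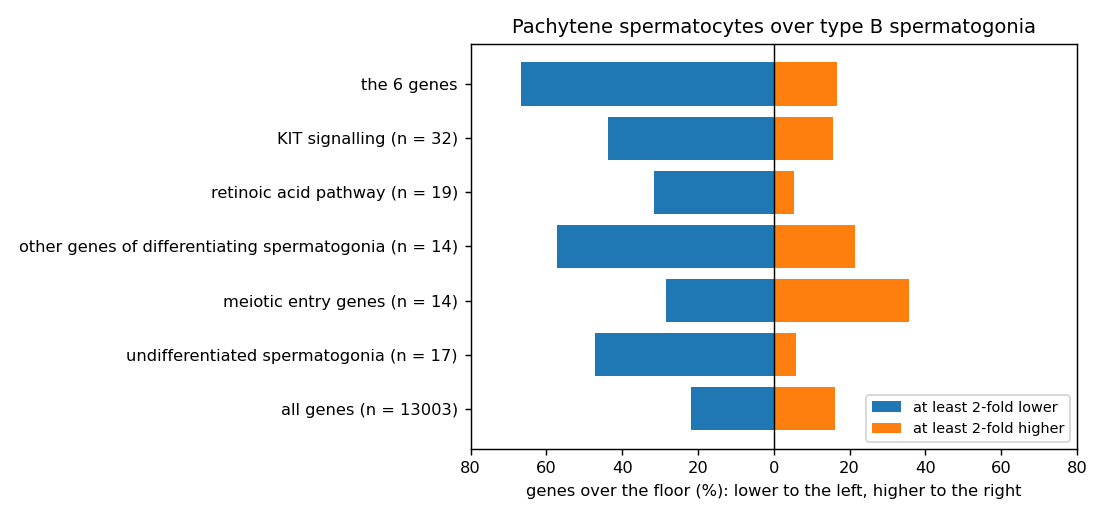
Share of genes over the floor (%) at least 2-fold lower (bars to the left) and higher (bars to the right) in pachytene spermatocytes over type B spermatogonia, for the 6 genes, for 5 gene lists without those 6, and for all genes. The bars to the left are longer for each list than for all genes, at 21.9%, and shortest among the lists for meiotic entry.

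The genes most like each of the 6 were sought on the same design among genes over the floor, by the root mean square difference of centred log2 signals over the 4 arrays. With 4 arrays many genes lie close, and the measure is a description. Signals under the floor were set to it first, so distances and ranks that involve such signals rest partly on the floor. Nearest to Kit were Rab9 (0.15), Tars (0.16) and Rbm38 (0.16), and nearest to Dmrt1 were Mcm2 (0.28), Hells (0.29) and Ski (0.33). Nearest to Stra8 were Rps19 (0.02), Hspe1 (0.10) and Wsb1 (0.10), and nearest to Rhox13 were Ugt8a (0.11), Ttll11 (0.29) and Wdr44 (0.30). Ppm1b (0.09), Mns1 (0.10) and Rangrf (0.16) were nearest to Dmrtb1, and Lrrc10b (0.07), Prr32 (0.08) and Lpo (0.09) to Fthl17a. Among these signals, those of Kit, Rab9, Tars, Stra8 and Ugt8a lay under the floor in pachytene, those of Lpo in both spermatogonial types, and those of Lrrc10b and Prr32 in all cell types but round spermatids. The closeness of the last 3 to Fthl17a, which was measured over the floor throughout, thus comes from values set to the floor. Ppm1b read 123 in type A, 75.4 in type B, 789 in pachytene and 1152 in round spermatids, so it had the shape of Dmrtb1 in all 4 cell types.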

How the data were processed

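Per the labels, total RNA of the 4 cell types went through one-cycle target labelling. Each deposited value is a probe set's signal intensity, not on a log scale. The submitters' processing notes name MAS5; its version and its settings were not stated in the sources. The arrays had 2% trimmed means between 125.02 and 125.1.

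Arrays of a design were brought to 1 trimmed mean, a floor was set at 0.4 of it and log2 was taken (Python 3.11.15, pandas 2.3.3, scipy 1.17.1). Of 36701 probe sets other than controls 1 symbol was given for 29131, several for 724 and none for 6846. Entrez identifiers tied 29110 of the first to current symbols in a RefSeq table of GRCm38.p6. A gene was read by its probe set of highest mean signal, and 13003 of 15964 genes exceeded the floor in at least 1 cell type. Ratios were taken within a design. Calls were run on simulated data with planted changes above 2-fold, in genes well over the floor in type B. That run does not cover changes of 2-fold or genes near the floor. Negative controls were 19 bacterial and yeast probe sets per array. The floor, scaling, choice of probe set, design and fold threshold were varied.

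The rule named the 6 genes and their probe sets, the 3 nearest genes of each, all family genes and up to 4 genes of a list at a step; Kitl, Grb2, Ptpn11, Akt1, Foxo1, Mtor, Rdh10, Rara, Ddx4 and Syce1 were picked beyond it, after their values were seen. Genes and lists were chosen with earlier results of these data known. Protein sequences were not used here.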

Additional observations from a re-analysis of the deposited data

How the results depend on the processing

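No paired analysis was possible because each cell type had 1 array per design. The number of the 6 genes at least 2-fold lower in type B than in type A was 0, but 2 under a common median, 1 under quantile normalization, 4 under spike-in scaling and 3 at a 1.5-fold threshold. The number at least 2-fold higher in pachytene than in type B was 1, and 0 with the second highest probe set of Dmrtb1. The number at least 2-fold higher in round spermatids than in pachytene was 3, but 1 of 4 on U74Av2 only, 2 with the floor at 0.8 and under spike-in scaling, 4 with no floor, under a common median and under quantile normalization, 5 at a 1.5-fold threshold and 1 at a 4-fold threshold, which was added after seeing the data. The count of 4 at least 2-fold lower in pachytene than in type B held in 10 of the 11 alternatives, the 4-fold threshold with the usual scaling included, and was 3 of 4 on U74Av2 only. In these 4 genes the log2 ratio ran over the alternatives from -2.31 to -1.01 for Kit, from -3.46 to -2.65 for Dmrt1, from -4.84 to -2.30 for Stra8 and from -4.09 to -2.80 for Rhox13. That of Dmrtb1 came to 1.17 with the mean over its probe sets. Signal over background limits Kit and Stra8 in pachytene, whose drop is bounded by the floor. The fold threshold does not enter list medians.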
